A study of Homo sapiens with 18 samples.

Results

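The cells described here are the untreated controls of a study of XIST in an ovarian cancer line. They are labelled OVCAR3-KRAB, carry the control guide sgCtl and were kept in normoxia. Their 3 RNA-seq libraries were chosen by their labels, out of 18 libraries in 6 groups of 3, and all 28277 genes of the count table were described by abundance. OVCAR3 is an established line from an ovarian carcinoma. OVCAR3-KRAB cells received, by lentivirus and blasticidin selection, dCas9-KRAB, in which a Cas9 that no longer cuts DNA is joined to the KRAB repressor domain. They also received sgCtl, a guide against the Gal4 promoter that has no intended target in human cells, with puromycin selection. The other groups carried sgXIST7 or sgXIST9 in place of sgCtl, or were kept for 24 h at 1% oxygen. All cells were grown in DMEM with 10% FBS and 1% antibiotics. The cells were clonal, and the paper calls the replicates biological. Neither it nor the labels say whether the 3 libraries came from a common clone or from separate cultures, so that the spread between them may be partly technical, and the replicate numbers have no order. Both the repressor fusion and the drug selection are part of this baseline, and no library of the parental line was analyzed here.

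The baseline of a cell is the list of RNAs it keeps at work when nothing is done to it. Most mRNA molecules of a growing cell code for the machinery of translation, the cytoskeleton, glycolysis and protein folding, and a smaller part codes for the receptors, adhesion molecules and transcription factors that mark its lineage. Alongside mRNA, RNA polymerase III makes very abundant short RNAs, such as the RNA scaffold of the signal recognition particle, which poly(A) selection would remove but ribosomal RNA depletion retains. XIST is the long noncoding RNA that coats and silences an X chromosome in female cells, and some ovarian cancers no longer express it.

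Abundance was measured on 2 scales. CPM values are the counts of a gene per 1000000 counts of its library, and serve to compare a gene between libraries. TPM values divide the counts by the exon length given in the table before each library is scaled to a sum of 1000000, and serve to compare genes. The libraries held 14315988, 11794375 and 16994842 counts in replicates 1, 2 and 3. A gene was counted as detected when each library had more than 3 counts for it, which is the upper limit that a count of 0 allows and equals 0.177 to 0.254 CPM in these libraries. This limit covers counting error only.

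Of the genes listed, 13960 (49.4%) were detected and 9425 had no count in any of the libraries. Protein-coding genes were detected most often, with 12043 of 19230 (62.6%). This share, with a median of 2.20 TPM over all of them, is the background for the lists of protein-coding genes below. Long noncoding RNA genes were detected less often, with 959 of 4681 (20.5%), and microRNA genes with 98 of 1913. Among detected genes, 2030 had a mean under 1 TPM, 5542 lay between 1 and 10 TPM, 5711 between 10 and 100 TPM, 632 between 100 and 1000 TPM, and 45 at 1000 TPM or above. The median detected protein-coding gene had 9.85 TPM, and the median detected long noncoding RNA gene had 1.63 TPM. Protein-coding genes took 83.8% ± 1.26 (SD, n = 3) of all counts, and long noncoding RNA genes took 1.67% ± 0.381 (SD, n = 3).

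**Figure D1:**
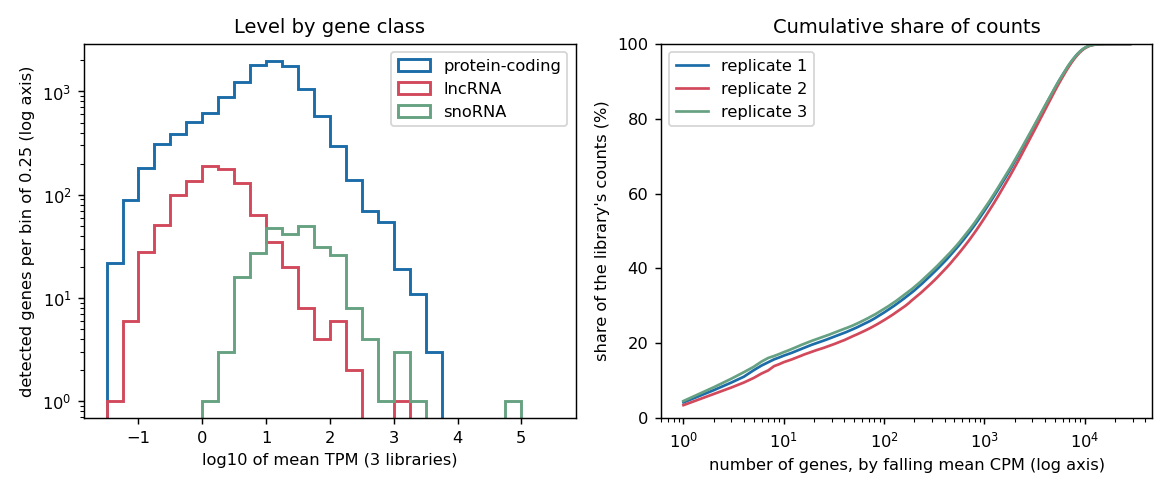
Left, number of detected genes (log axis) by the log10 of their mean TPM over 3 libraries, for protein-coding, long noncoding RNA and snoRNA genes, whose medians are 9.85, 1.63 and 27.4 TPM. Right, cumulative share of the counts of each library (%) over genes ordered by falling mean CPM (log axis), which reaches 55.0% on average at 1000 genes and runs lowest in replicate 2.

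Counts were concentrated in few genes. The 10 most abundant genes took 16.4% ± 1.36 (SD, n = 3) of all counts, the 100 most abundant 27.9%, and the 1000 most abundant 55.0%. The 6 highest were all short noncoding RNAs. RN7SL1 and RN7SL2, the copies of the RNA of the signal recognition particle, which directs nascent secreted proteins to the endoplasmic reticulum, stood first. RN7SL1 had 42052, 34638 and 45656 CPM in replicates 1, 2 and 3, and RN7SL2 had 32511, 29885 and 36681 CPM. RN7SK, the RNA that holds the elongation factor P-TEFb inactive, had 20466, 17227 and 22969 CPM. RMRP, the RNA of the RNase MRP complex, had 15633, 13360 and 17431 CPM. In all of these, replicate 2 was the lowest library. SNORD3A, the U3 snoRNA that guides cleavage of the ribosomal RNA precursor, had 17166, 12076 and 14184 CPM, and RPPH1, the RNA of RNase P, had 12655, 11970 and 14152 CPM, again lowest in replicate 2. RN7SL1, RN7SL2, RN7SK, RMRP and RPPH1 together took 12.2% ± 1.49 (SD, n = 3) of the counts. Because these genes are short, together with SNORD3A they made 57.4% ± 2.47 (SD, n = 3) of the TPM total, so that the TPM of every other gene would be 2.39 times as high in a table without them. Their part was smaller in replicate 2 (54.7%) than in replicates 1 (58.1%) and 3 (59.5%), which raises the TPM of other genes in replicate 2.

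RN7SL1 and RN7SL2 are near-identical copies, so that many reads match both equally well. The ratio of RN7SL2 to RN7SL1 counts was 0.813 ± 0.0456 (SD, n = 3), and how the aligner and counter divided shared reads is not given in the sources used here. The level of each copy is therefore uncertain, while their sum, 7.38% ± 0.893 (SD, n = 3) of the counts, does not depend on the division between them.

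**Figure D2:**
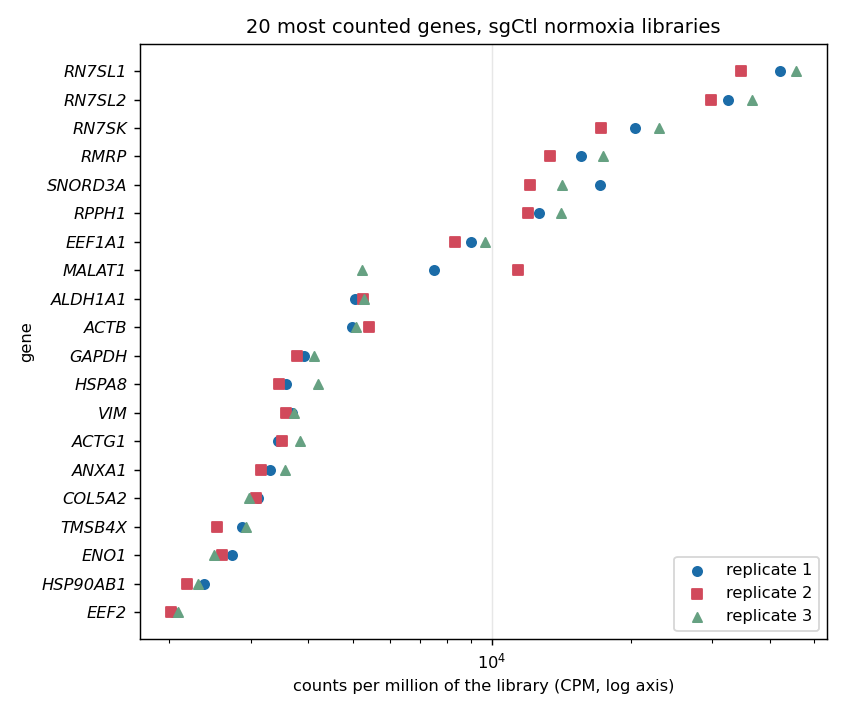
CPM of the 20 genes with the highest mean, 1 point per library (n = 3), on a log axis. The 6 short noncoding RNAs lead, followed by EEF1A1, and MALAT1 is the gene of the 20 whose libraries lie farthest apart, from 5226 to 11395 CPM.

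Below the short RNAs, the most abundant gene by CPM was EEF1A1, the elongation factor that brings aminoacyl-tRNA to the ribosome, with 9002, 8335 and 9680 CPM. MALAT1, a nuclear long noncoding RNA found in most tissues, had 7498, 11395 and 5226 CPM, and replicate 2 had 2.18 times the level of replicate 3. ALDH1A1, a retinaldehyde dehydrogenase used as a stem cell marker in ovarian cancer, came next with 5051, 5246 and 5271 CPM, close together in all libraries. This gene lies at chr9:72900671-72953053 on the minus strand of hg38. COL5A2, which codes for a chain of the fibrillar collagen V, had 3111, 3081 and 2982 CPM and also belonged to the 20 most abundant genes.

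Per length, the thymosins TMSB4X and TMSB10 and the actin ACTB led the protein-coding genes. TMSB4X, which codes for the actin-sequestering thymosin beta 4, had 5501 ± 53.9 TPM (SD, n = 3), its relative TMSB10 4448 ± 399 and ACTB 3509 ± 433. The actin gene ACTG1 stood lower, at 2164 ± 143 TPM. ALDH1A1, with 2885, 3353 and 2896 TPM, stood between EEF1A1 at 3141 ± 62.0 TPM (SD, n = 3) and ANXA1 at 2923 ± 101 TPM, and did not differ from either beyond its spread of 267 TPM. ANXA1 codes for a calcium-dependent membrane-binding protein. GAPDH had 2792 TPM, and VIM, the intermediate filament of mesenchymal cells, 2088 ± 120 TPM (SD, n = 3). PTMA had 2075 TPM, the constitutive chaperone HSPA8 2024 TPM, the myosin light chain MYL6 1505 TPM and the ferritin light chain FTL 1398 TPM. Ribosomal components filled most of the other places among the 20 highest, including RPS12, RPS2, RPS27, RACK1, RPL30 and RPL13A, from 1393 to 2854 TPM.

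The labelled cell type was compared with marker genes. Among 9 markers of ovarian serous carcinoma, only PAX8, the transcription factor of the Müllerian lineage, was detected, with 18, 26 and 23 counts, or 0.495 ± 0.202 TPM (SD, n = 3). MUC16, which codes for the CA125 antigen, WFDC2, which codes for HE4, and SOX17, a partner of PAX8, had no count in any of the 3 libraries. MSLN, which codes for mesothelin, had 1, 2 and 0 counts. The 9 markers summed to 0.711 ± 0.235 TPM (SD, n = 3). None of them lies on several contigs or has most of its exon bases in another gene. In the other 15 libraries, MUC16 had 0 to 4 counts, WFDC2 0 to 3 and SOX17 0 to 2, so that their near absence was shared by the whole series. From a broader list of 25 Müllerian and serous genes, 4 were detected and 10 had no count, and the list had a median of 0.0208 TPM, against 2.20 TPM over all protein-coding genes listed. BCAM, an adhesion molecule, was the highest of these at 5.41 TPM. No genotype of these cells was compared with that of OVCAR3, so that the name of the line rests on the labels and the paper alone.

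Epithelial markers were divided. EPCAM, the epithelial adhesion molecule, had 163, 168 and 151 TPM, and KRT18, the keratin of simple epithelia, had 134, 164 and 143 TPM. Both were far above the median protein-coding gene in every library. KRT8, the partner of KRT18, had 5.27 ± 0.476 TPM (SD, n = 3). By contrast CDH1, which codes for E-cadherin, KRT7 and CLDN3 had no count. Of 30 genes of epithelial adhesion and keratins, 10 were detected and the median was 0.0836 TPM. Desmosomal genes were among those present, with PKP3 at 22.5 TPM, JUP at 14.2 TPM and DSP at 8.91 TPM, while GRHL2, a transcription factor of epithelia, had no count and ESRP1, an epithelial splicing factor, was at 0.0175 TPM.

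Markers of other cell types were mostly near 0. Of 5 leukocyte markers, only CD68, a lysosomal protein not confined to macrophages, was detected, at 20.2 ± 0.659 TPM (SD, n = 3), and CD3E had no count, nor had PTPRC, which is listed on several contigs. None of 4 endothelial markers was detected, and they summed to 0.0250 TPM. Among 6 markers of fibroblasts and mural cells, COL3A1 had 219, 259 and 198 TPM and COL1A1 0.125 TPM, and the sum was 225 ± 31.0 TPM (SD, n = 3). Among 5 markers of ovarian stroma and germ cells, FOXL2, a transcription factor of granulosa cells, had 6.69, 10.0 and 7.93 TPM and AMH, a hormone of granulosa cells, had 1.04 TPM, while CYP19A1, which codes for aromatase, had no count.

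**Figure D3:**
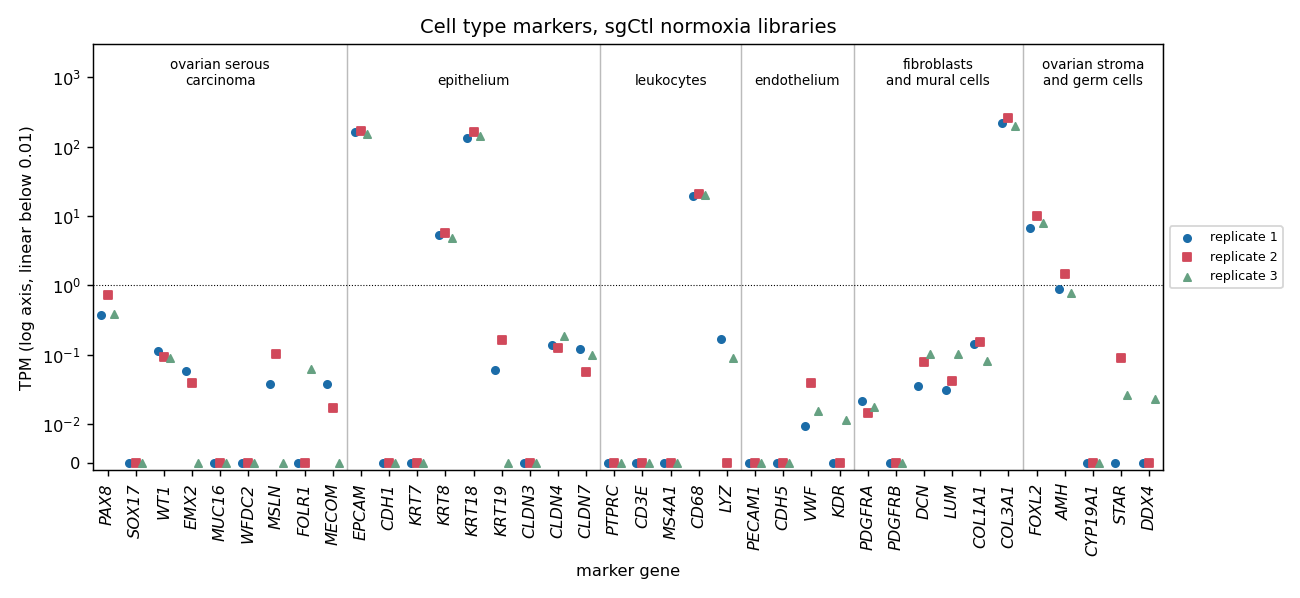
TPM of the cell type markers in each of the 3 libraries, on a log axis, grouped by cell type. Of the serous carcinoma markers PAX8 is the highest at a mean of 0.495 TPM, while EPCAM at 160 TPM, KRT18 at 147 TPM and COL3A1 at 225 TPM are the highest of all.

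Over all protein-coding genes listed, 62.6% were detected, with a median of 2.20 TPM. The mesenchymal list lay near this background and above the epithelial list, with 14 of 20 genes detected and a median of 2.87 TPM. VIM led it, and S100A4, a calcium-binding protein of motile cells, followed with 1281 ± 52.7 TPM (SD, n = 3). Some transcription factors of the epithelial to mesenchymal transition were detected at lower levels. TWIST2 had 17.5 TPM, ZEB1 4.97 TPM, ZEB2 3.27 TPM, TWIST1 2.88 TPM and SNAI1 2.26 TPM. SNAI2, with 7, 3 and 3 counts, and PRRX1, with 5, 1 and 2 counts, were not detected. CDH2, which codes for N-cadherin, was at 0.0501 TPM and MMP2 had no count. The contractile gene ACTA2 had 53.9, 38.8 and 22.6 CPM, a ratio of 2.39 between replicates 1 and 3, and TAGLN had 134, 95.1 and 78.0 CPM. NES, which codes for nestin, had 18.8, 12.7 and 7.18 CPM. These genes were highest in replicate 1 and lowest in replicate 3.

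In the extracellular matrix and integrin list, 24 of 32 genes were detected, with a median of 2.18 TPM. For all protein-coding genes these values were 62.6% and 2.20 TPM. TIMP1, an inhibitor of metalloproteinases, had 701 ± 31.6 TPM (SD, n = 3). ITGB1 and ITGAV, which code for integrin chains, had 226 and 139 TPM, and COL6A3, from outside this list, had 135 TPM. FN1, which codes for fibronectin, was low at 0.896 TPM, and MMP7 had no count. The cytoskeletal list was detected in full, with 29 of 29 genes and a median of 127 TPM.

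Markers used for cancer stem cells differed by orders of magnitude. Of 18 stem cell and pluripotency genes, 9 were detected. ALDH1A1, at 3044 ± 267 TPM (SD, n = 3), exceeded the next gene, LIN28B, a blocker of let-7 maturation, at 4.50 ± 0.387 TPM. The related dehydrogenase ALDH1A3 had 2.58 TPM, whereas ALDH1A2 was not detected. CD44, the hyaluronan receptor, had 1, 0 and 0 counts, and CD24 had 16, 14 and 32 counts, a gene with copies elsewhere in the genome whose count is uncertain. SOX9, KLF4 and BMI1 had 1.82, 1.74 and 1.53 TPM. KIT had no count, nor had POU5F1, which is listed on several contigs, and NANOG, SOX2 and PROM1 were not detected.

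Of the receptor tyrosine kinases, 20 of 32 were detected, near the 62.6% of all protein-coding genes. The median over the list was 0.581 TPM, against 2.20 TPM. DDR2, a receptor for fibrillar collagen, was the highest with 41.9, 48.1 and 39.4 TPM. EPHA2 had 59.4, 70.3 and 62.2 CPM, which cannot be set against the TPM of DDR2. PTK7 had 19.6 TPM, EPHB4 17.9 TPM, ERBB2 14.2 TPM, ERBB3 10.7 TPM and EGFR 5.16 TPM. IGF1R and PDGFRA were not detected, and PDGFRB, KIT, NTRK3, ALK and ROS1 had no count. Among 20 surface antigens targeted by antibodies, 8 were detected. Besides EPCAM, these included TNFRSF10B at 30.9 TPM and CD276 at 15.3 TPM, while FOLR1 had 0, 0 and 1 counts.

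Nuclear hormone receptors were detected in 19 of 26 cases, against 62.6% of all protein-coding genes. The orphan receptors NR2F6, with 62.2, 69.0 and 59.8 TPM, and NR2F1, with 34.7, 38.1 and 27.9 TPM, stood highest. Among the receptors for retinoic acid, the product of ALDH1A1, RARB had 15.6, 25.4 and 18.9 TPM. RARG had 19.4 TPM and RARA 5.60 TPM. ESR1 and PGR, which code for the estrogen and progesterone receptors, had no count, and NR3C1, which codes for the glucocorticoid receptor, was at 0.0763 TPM.

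HOX genes, which record position along the body axis, were present from all clusters in unequal amounts. In HOXB, 9 of 10 genes were detected, with a summed level of 69.7 TPM. HOXC followed with 7 of 9 and 43.6 TPM, HOXD with 3 of 9 and 17.9 TPM, and HOXA was the lowest with 4 of 11 and 5.10 TPM. HOXB7 had 20.8, 18.5 and 16.4 TPM, HOXC10 15.8, 22.7 and 14.8 TPM, and HOXB2 a mean of 17.8 TPM, so that the order of these 3 was within their spread. HOXA9 and HOXA10 had no count.

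All 20 genes that are recurrently altered in high-grade serous cancer were detected, with a median of 14.7 TPM. CTNNB1, which codes for beta-catenin, had 191 ± 14.0 TPM (SD, n = 3) and PARP1 86.8 ± 7.47 TPM. CCNE1, which codes for cyclin E1 and is amplified in a subset of these tumors, had 37.4 ± 2.04 TPM and MYC 21.0 ± 1.93 TPM. BRCA1 and BRCA2, of homologous recombination, had 20.3 and 18.4 TPM. Whether these genes carry mutations cannot be read from counts.

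Genes of the cell cycle were detected in 32 of 34 cases, with a median of 68.5 TPM. PCNA, the sliding clamp of replication, had 214, 212 and 185 TPM, TOP2A 160, 169 and 152 TPM, and CCNB1 155, 154 and 156 TPM. The libraries lay close together for all 3 genes. This did not hold for the proliferation gene MKI67, with 432, 787 and 360 CPM, a ratio of 2.18 between replicates 2 and 3. CCND1 had 71.7 TPM, while CCND2 had 2 counts in each library and CDK6 had 6, 3 and 2. CDKN1A, the cyclin-dependent kinase inhibitor p21, was at 2.19 ± 0.294 TPM (SD, n = 3). In the BCL2 family, which sets the threshold for apoptosis, 15 of 16 genes were detected, led by MCL1 at 102 ± 3.22 TPM, while BCL2 itself had 12, 6 and 8 counts. BAX, an effector of apoptosis, had 38.5 TPM, and BCL2A1 had no count.

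The partners through which a KRAB domain silences its target were all detected, 16 of 16, with a median of 50.4 TPM. CBX3, which codes for the heterochromatin protein HP1 gamma, had 218 ± 0.495 TPM (SD, n = 3), and TRIM28, the corepressor that KRAB binds, had 152, 178 and 151 TPM. SETDB1, which methylates histone H3 at these targets, was lower at 17.4 ± 2.56 TPM. Of the zinc finger genes with a ZNF symbol, whose class includes the natural carriers of KRAB domains, 421 of 534 were detected, mostly at low levels, and ZNF207 was the highest at 132 TPM.

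XIST, the gene silenced in the other clones, lies at chrX:73820651-73852753 on the minus strand of hg38. It had 4900, 11209 and 4213 counts, or 342, 950 and 248 CPM. Replicate 2 was higher than both other libraries, and the ratio of the highest to the lowest was 3.83. Its mean level was 34.0 ± 27.9 TPM (SD, n = 3), so that the SD came close to the mean. Of the neighboring noncoding genes that activate XIST, JPX had 12.8, 11.2 and 12.2 CPM and FTX 5.80, 8.48 and 6.53 CPM, with ratios of 1.14 and 1.46 between their highest and lowest libraries. TSIX, the antisense gene, had 9, 10 and 2 counts. On either strand, 38.9% of the exon bases of XIST lie in another gene, and none on the same strand. The libraries were stranded, but the strand setting of the count is not given in the sources used here. How reads from the shared bases were treated is therefore not known. TSIX, of whose 37027 exon bases 20.2% are shared, held no more than the counts given above over its whole length. Of 18 genes of X inactivation found in the table, 17 were detected, with a median of 27.1 TPM. HNRNPK, which links XIST to Polycomb complexes, had 299 TPM and SMCHD1 35.2 TPM. SPEN, the silencing factor that binds the A repeat of XIST, had 77.5, 155 and 63.7 CPM, and was highest in replicate 2 like XIST. In this list, 12 of the 17 detected genes had their highest CPM in replicate 2, but 7 with the trimmed mean of M values (TMM) or median-of-ratios scaling, which adjust for the composition of each library. XIST itself kept a ratio of 3.58 and 3.61 between replicates 2 and 3 under these scalings.

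Other long noncoding RNAs differed between libraries in both directions. NEAT1, the scaffold of paraspeckles, had 173, 332 and 140 CPM, and KCNQ1OT1, an imprinted antisense RNA, had 200, 419 and 210 CPM. Each was highest in replicate 2, as was MALAT1. GAS5, with 195, 175 and 205 CPM, and NORAD, with 455, 410 and 464 CPM, were instead lowest in replicate 2. Of 34 long noncoding RNAs on the list, 26 were detected, with a median of 15.7 TPM. Over all 4681 long noncoding RNA genes in the count table, 20.5% were detected, with a median of 0 TPM. Within the list, GAS5 at 276 TPM, SNHG5 at 167 TPM and SNHG8 at 122 TPM followed MALAT1. HOTAIR and H19 were not detected, and MEG3 and UCA1 had no count.

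On the X chromosome, 411 detected protein-coding genes had a median of 7.58, 8.87 and 7.41 TPM in replicates 1, 2 and 3, against 9.81, 11.6 and 9.30 TPM for 11223 autosomal genes, where only genes placed on 1 contig were used. The ratio was 0.772, 0.762 and 0.797, with a mean of 0.777 ± 0.0178 (SD, n = 3). It was lowest in replicate 2, where XIST was highest, and highest in replicate 3, where XIST was lowest. A relation between the ratio and XIST was not tested. Single autosomes ran from 6.03 TPM for chromosome 18 to 13.4 TPM for chromosome 16, and the X chromosome, at 7.95 TPM, lay within this range. Of the X-linked protein-coding genes listed, 49.9% were detected, against 63.4% on autosomes.

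The oxygen-sensing list was detected in 9 of 10 genes at normal oxygen. HIF1A, whose protein is degraded in normoxia, had 71.7, 82.5 and 68.7 TPM. EPAS1, which codes for HIF-2 alpha, was far lower at 0.938 ± 0.0662 TPM (SD, n = 3), and HIF3A had no count. VHL, which marks HIF proteins for degradation, had 29.3 TPM and EGLN1, the prolyl hydroxylase that senses oxygen, 10.2 TPM. Among 25 genes known to be induced by hypoxia, 23 were already detected, with a median of 8.04 TPM. ADM, which codes for adrenomedullin, had 228, 259 and 257 TPM, and VEGFA 11.2, 12.3 and 11.4 TPM. CA9, carbonic anhydrase IX, had 1, 0 and 0 counts.

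Glycolysis genes were detected in 18 of 21 cases, with a median of 33.1 TPM, and took 1.21% ± 0.0161 (SD, n = 3) of the counts. Isoform genes differed widely. ENO1 had 1015 ± 95.7 TPM against 15.7 TPM for ENO2, and LDHB, at 634 TPM, was near LDHA, at 508 ± 69.1 TPM (SD, n = 3). HK1 had 17.2 TPM and HK2 8.04 TPM. Nuclear genes for the respiratory chain and ATP synthase were detected in 78 of 86 cases, with a median of 85.3 TPM, led by ATP5F1B at 676 TPM. Of 30 genes of the mitochondrial genome searched for, 0 were listed, and the only gene with an entry on that chromosome was the microRNA gene MIR12136, which also has an entry elsewhere. Of the iron and redox genes, 22 of 23 were detected, with FTL followed by PRDX1, a peroxiredoxin, at 713 TPM and NQO1, a quinone reductase induced by NRF2, at 308 TPM.

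The genes of cytosolic ribosomal proteins were detected in 84 of 88 cases, with a median of 452 TPM, and took 4.54% ± 0.298 (SD, n = 3) of the counts. RPL10L and RPL3L, the tissue-restricted paralogs, were among the 4 without a count. Many of these genes have processed copies elsewhere in the genome, so that single levels are uncertain. Replicate 2 had the lowest CPM for 76 of the 84 and the highest for none, and the lowest for 79 with TMM or median-of-ratios scaling. Translation factors were detected in 23 of 25 cases with a median of 108 TPM, with EEF2 at 796 TPM and EEF1G at 769 TPM after EEF1A1. Chaperones were detected in 23 of 24 cases with a median of 180 TPM, with HSP90AB1 at 928 TPM and the mitochondrial HSPD1 at 893 TPM after HSPA8.

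Histone mRNAs of the replication-dependent kind end in a stem-loop in place of a poly(A) tail and are retained in total RNA. Of 77 histone genes, 54 were detected, with a median of 121 TPM over the list. H3C14, H3C15, H4C14, H4C15, H2AC18 and H2AC19 had no count, and 100% of their exon bases lie in another gene on the same strand. Whether these genes were expressed cannot be read from the counts, which also limits the number detected and the median. H1-4 had 1299 ± 130 TPM (SD, n = 3), H3C2 1276 ± 51.0 TPM and H4C3 1041 ± 15.6 TPM. Small nucleolar and Cajal body RNAs were detected in 283 of 568 cases, led after SNORD3A by SNORA73A at 1989 TPM and SNORA73B at 1516 TPM. MicroRNA genes took 0.0227% ± 0.00227 (SD, n = 3) of the counts. Since most of them lie within longer transcripts, their counts cannot be told apart from reads of the host.

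Genes of antigen presentation and innate sensing were detected in 15 of 26 cases, with a median of 0.134 TPM. For all protein-coding genes these values were 62.6% and 2.20 TPM. ISG15, a ubiquitin-like protein induced by interferon, had 81.8 ± 3.50 TPM (SD, n = 3), while CGAS and STING1, of the cytosolic DNA sensing pathway, were at 0.126 and 0.0582 TPM. PSMB8, which codes for a subunit of the immunoproteasome, had no count. Its exons and those of HLA genes are listed on several contigs, and their levels are uncertain. Of 18 ABC transporters, 13 were detected, led by the ribosome recycling factor ABCE1 at 96.0 ± 4.05 TPM. The drug efflux pumps ABCB1, with no count, and ABCG2, with 1, 0 and 0 counts, were not detected, and ABCC1, listed on several contigs, had 0.833 TPM, or 1.66 TPM with the main-chromosome length.

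The 3 libraries resembled each other closely. Over the 13960 detected genes, Pearson's r of log2(CPM + 1) was 0.991 to 0.993 between pairs, which is a description across genes that share their libraries and are not independent replicates. Over 9990 genes with a mean of at least 100 counts and a length of at least 200 bases, the median ratio of the highest to the lowest CPM was 1.14, and 90% of genes had a ratio of at most 1.38. The ratio was above 1.5 for 545 genes (5.46%), above 2 for 130 genes (1.30%) and above 3 for 32 genes (0.320%). The biological coefficient of variation, the relative spread between libraries beyond counting noise, was 0.104 by edgeR over the 3 libraries. In the other 5 groups it lay between 0.0537 and 0.254. No library was a repeat deposit, since the counts of each pair differed beyond counting noise, with a chi-square of 8.35 to 25.7 times its degrees of freedom.

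**Figure D4:**
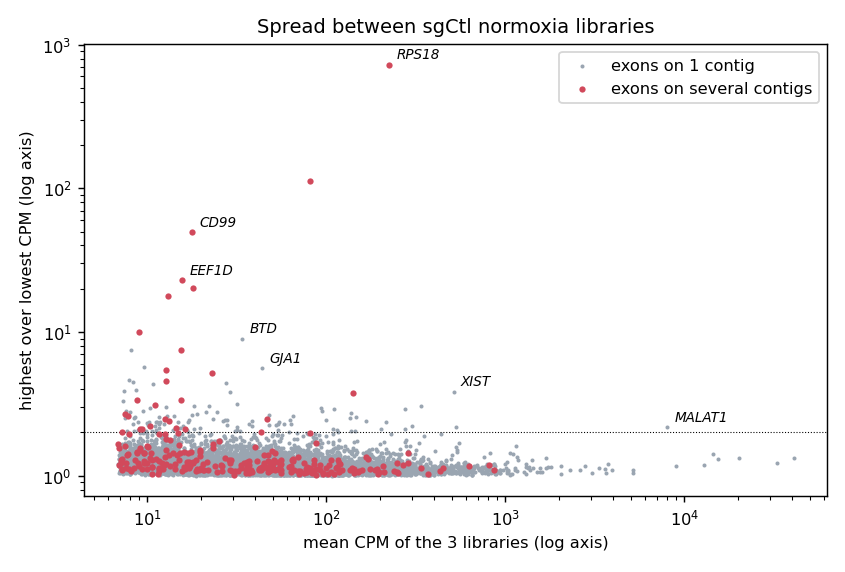
Ratio of the highest to the lowest CPM over the 3 libraries, on a log axis, against mean CPM, on a log axis, for the 9990 genes with a mean of at least 100 counts and 200 bases, with genes on several contigs marked. Most genes lie near 1.14, and of the 32 genes above 3, 15 are listed on several contigs.

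The genes with the largest ratios were of 2 kinds. Of the 20 largest, 11 had exons listed on several contigs, that is, on a main chromosome and on an alternate or fix sequence of the same locus, or on both sex chromosomes. Over all 9990 genes, 2.63% were of this kind. RPS18, a ribosomal protein gene, had 0.559, 266 and 406 CPM. Replicate 1 was near 0 and the other libraries were not. Of the 84 detected ribosomal protein genes, 3 differed more than 2 times between libraries, RPS18 and RPS9 among them. The further genes of this kind among the 20 included CD99, EEF1D, AATF, CUTA, YWHAE, DNAJA3, ARHGAP11A and the ribosomal RNA genes RNA28SN5 and RNA28SN2.

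The remaining 9 were listed on 1 contig. BTD, which codes for biotinidase, had 27.1, 67.2 and 7.47 CPM and the largest ratio of these. TLL1, a metalloprotease of the BMP1 family, had 15.5, 6.70 and 2.06 CPM. GJA1, which codes for the gap junction protein connexin 43, had 80.3, 37.1 and 14.3 CPM, and the growth factor TGFB2 had 13.9, 8.05 and 3.12 CPM. TLL1, GJA1 and TGFB2 were all highest in replicate 1 and lowest in replicate 3, as were ACTA2, TAGLN and NES. The others included H2BC6, H1-5, SHISA3 and ZPLD1. Of the 104 genes on 1 contig with a ratio above 2, replicate 2 was the highest for 79 and replicate 3 the lowest for 97. With TMM, 82 such genes exceeded 2, and replicate 2 was the highest for 56.

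Differences between libraries moved with the length of the gene. The 9727 genes on 1 contig were ordered by exon length and divided into 5 classes of similar size. In the shortest class, with a median of 1526 bases, the median log2 ratio of CPM in replicate 2 to replicate 1 was -0.06, and in the longest, with a median of 8402 bases, it was 0.17. Between them the medians were 0.01, 0.04 and 0.08, in order of length. Against replicate 3 the same ratio went from -0.09 to 0.20. Replicate 2 had the highest CPM for 20.4% of the shortest class and for 78.0% of the longest. Another scaling of a library would shift the median log2 ratios of all classes by the same amount and leave the differences between these medians as they are. The percentages of genes highest in replicate 2 do depend on the scaling. Spearman's rho between length and the log2 ratio was 0.417 for replicates 2 and 1, 0.464 for replicates 2 and 3 and 0.153 for replicates 1 and 3, as descriptions across 9727 genes. XIST, with 19280 exon bases, MALAT1, NEAT1, KCNQ1OT1 and SPEN are long transcripts with their highest CPM in replicate 2. Not every long gene was highest there, and RLIM, with 10627 exon bases, was highest in replicate 1. The 6 short RNAs, 76 of 84 ribosomal protein genes and 65 of 78 respiratory chain genes had their lowest CPM in replicate 2. Between replicates 2 and 3 the CPM of XIST differed 3.83 times, while the longest class had a median log2 ratio of 0.20. The part of transcript length in the difference of XIST between libraries was not tested.

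**Figure D5:**
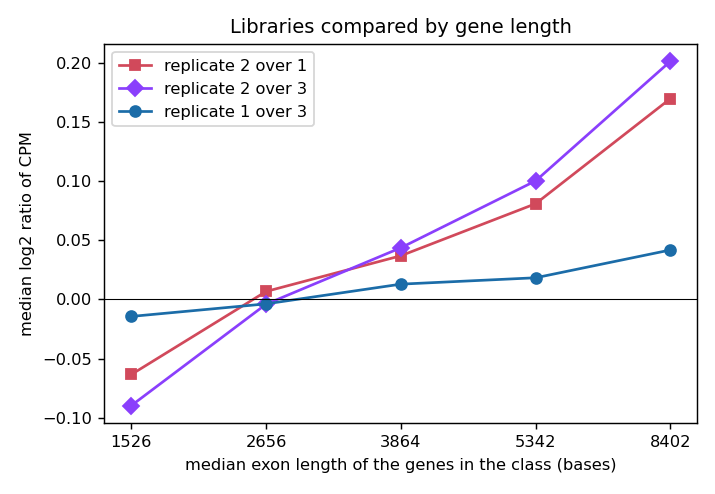
Median log2 ratio of CPM between pairs of libraries in 5 classes of genes, placed by the median exon length of each in bases. The ratio of replicate 2 to both other libraries rises from below 0 in the shortest class to 0.17 and 0.20 in the longest, while that of replicate 1 to replicate 3 runs from -0.01 to 0.04.

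Some genes that every cell uses were listed near 0, which limits how far a low value can be read. EIF4A1, which codes for the main helicase of translation initiation, had no count, and 100% of its exon bases lie in another gene on the same strand. EIF3C had 0, 3 and 2 counts, and 89.6% of its exon bases are shared. Of 493 protein-coding genes that share over 80% of their exon bases on the same strand, 10.1% were detected and 74.2% had no count. Among 15704 genes on 1 contig sharing under 5%, 64.4% were detected and 21.3% had no count. Of 28 protein-coding genes that share over 80% on the opposite strand only, 42.9% were detected and 25% had no count. Of 1187 protein-coding genes on several contigs, 34.4% were detected. RPS9, with 16, 8 and 5 counts, belonged to the latter. HSPB1, a small heat shock protein, had 1, 2 and 2 counts, although it lies on 1 contig and shares no exon bases.

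Exon lengths were also affected. For 1890 genes the table lists exons on several contigs, and the length given adds up all of them. RPS18 has a listed length of 2893 bases but 549 on chromosome 6, and with the latter its mean would be 497 TPM in place of 94.9 TPM. B2M, which codes for the light chain of HLA class I, would have 31.0 TPM in place of 15.6 TPM. The mean TPM was at least 1.5 times as high with the main-chromosome length for 869 genes, 477 of them detected. These 1890 genes held 1.79% of all counts.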

How the data were processed

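The authors extracted total RNA with Trizol, depleted ribosomal RNA, prepared stranded libraries and sequenced paired ends on a NovaSeq. Per the labels and the methods, reads were trimmed with Trimmomatic, checked with FastQC, aligned to hg38 with hisat2, counted with featureCounts and compared with DESeq2; versions, strand setting and the treatment of multiply aligned reads are not given in the sources used here. The deposited values are the authors' raw counts per gene, with its exon coordinates and length. Of 28279 lines, 2 were broken and left out. Columns without a sample numbered 0. The table's strand entries were truncated for genes with many exons, so that the last entry was carried on.

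From these counts, CPM, TPM, detection and spread were computed with Python 3.11.15 (numpy 2.4.6, pandas 2.3.3), the biological coefficient of variation with edgeR 4.0.16 in R 4.3.3 (intercept only, TMM, filterByExpr), and median-of-ratios scaling with DESeq2 1.42.0. The dispersion estimate was tested on simulated data. Gene classes came from RefSeq names (GRCh38.p14), matched for 27648 genes, and 629 were unmatched. Values of some genes that the rule below covers, and sequences, are not reported here. There is 1 group and no contrast, so that no test was run.

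Genes were named by rule: the 20 highest by CPM, the 20 highest protein-coding genes by TPM, the 20 largest ratios between libraries, the highest members of each list, members at or under the detection limit or differing over 2 times, and XIST, JPX and FTX. The libraries and the gene lists, written from general knowledge, were chosen with earlier results of these data known. The alternatives were other detection limits, scalings, length filters and each library left out.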

Additional observations from a re-analysis of the deposited data

How the results depend on the processing

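The number of detected genes, 13960, ranged from 12334 (mean of at least 1 TPM) to 15824 (at least 1 count in each library), and the number of genes of at least 10 TPM, 6389, from 6116 to 9210. With totals taken without genes under 200 bases, RN7SL1 and RN7SL2, the share of the 10 highest genes was 10.6%, that of protein-coding genes 90.7% and that of ribosomal protein genes 4.91%, since the denominator was smaller. The biological coefficient of variation was 0.179 when estimated from all 18 libraries. Replicate 2 was the highest library for 4847 of 9990 genes by CPM, but for 3224 with median-of-ratios scaling and 3115 with TMM, so that this count depends on the scaling. Genes differing over 2 times, 130, fell to 42 without replicate 2 and 43 without replicate 3, and were 105 without replicate 1, with fewer libraries in each. Of 320 named genes, the mean CPM moved by over 1 SD for 77 with TMM and 92 with median-of-ratios scaling. With 3 libraries, leaving out a library cannot move a mean by 1 SD, so that this alternative says nothing about the stability of these levels or of the shares of counts. Alternatives chosen after seeing the data were TMM-scaled CPM for the spread, genes on 1 contig only, TPM with the main-chromosome length, which moved 17 of 320 genes, and TPM without 6 small RNA genes, which moved 285 of 314. No paired analysis was possible because a single group was described and no test was run. Depth limits levels under about 0.254 CPM, and undetected genes may be present below it.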
